A study of Mus musculus with 6 samples.

Results

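Chemokines are small secreted proteins that bind G protein-coupled receptors on leukocytes and direct their migration, and most of those receptors signal through Gi proteins, whose beta-gamma subunits switch on the phosphoinositide 3-kinase gamma. Neutrophils and monocytes use, besides chemokine receptors, receptors for complement fragments, formylated bacterial peptides, leukotriene B4 and platelet-activating factor. In the mouse, Cxcr2 and its ligands draw neutrophils out of the bone marrow and into inflamed tissue, Cxcr4 and its ligand Cxcl12 hold them in the marrow, and Ccr2 is the receptor by which inflammatory monocytes leave it. Described here are 34 genes of this system, chosen by name and not by their values: 17 chemokine ligands, 11 chemokine receptors (Ccrl2 and Ackr3 among them) and 6 receptors for other chemoattractants, out of 29374 genes with any estimated read.

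The RNA came from mice that carry the Mll-AF9 fusion as a knockin allele and had developed leukemia, on a C57BL/6 background. Splenocytes positive for CD11b and Gr1 were sorted from tumor-bearing mice that were either Rpl22+/+ or Rpl22-/-, and 3 poly(A) RNA-seq libraries were made per genotype. The Rpl22 gene product is a component of the ribosome, and its deletion is in the germline, so host tissue lacked it as well. All libraries carry Mll-AF9, and none is from a normal mouse. The labels do not say that the 3 libraries of a genotype are from separate animals, and the study's description of its explants names a single mouse per genotype. The p-values therefore measure the spread between libraries, which may be technical, and if each genotype is 1 leukemia, a difference by genotype and a difference between those leukemias cannot be told apart.

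The libraries held 35828500 to 102866127 estimated reads, and Rpl22-/- replicate 1 was the shallowest. Rpl22+/+ replicate 2 stood apart from its group (Pearson r of log2 CPM over genes 0.926 and 0.934, against 0.992 between replicates 1 and 3). Levels are in CPM, reads per 1000000 reads of a library size scaled by TMM, and TPM is used only where different genes are compared. Rpl22 itself was at 148, 235 and 152 CPM in the Rpl22+/+ libraries and at 58.3, 89.9 and 73.5 CPM in the Rpl22-/- libraries (log2 fold change -1.27 ± 0.25 SE, edgeR adjusted p = 0.0106), so the labels and the reads point the same way, although reads on the gene were not absent. A gene is called here when its edgeR adjusted p is under 0.05 and its absolute log2 fold change is over 1. Of 16656 genes tested, 8.93% were called higher in Rpl22-/- and 8.54% were called lower. Over all tested genes the log2 fold change had a median of 0.07.

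Receptors and ligands differed in what was called. Of the 17 receptors, all were tested, 9 were called lower in Rpl22-/- and 1, Ackr3, was called higher. Of the 17 ligands, 12 had enough reads to be tested, 2 (Ccl6 and Ccl22) were called lower and 0 higher. At an edgeR adjusted p under 0.05, whatever the size of the change, 0 ligands were higher and 3 were lower, against 13.7% and 13.8% of all tested genes. The median log2 fold change was -1.19 over the receptors and 0.25 over the tested ligands. The ligand median is not stable: it was -0.96 without Rpl22-/- replicate 3, -0.0035 with a replicate block and -0.11 on log2(TPM + 1). The receptor fold changes were below 0 for 16 of 17, and the ligand fold changes were below 0 for 6 of 12. Without Rpl22+/+ replicate 2, 9 receptors were called lower and 1 higher, while among ligands 1 (Ccl22) was called lower and 1 (Ccl5) higher. With any other library left out, 6 or 7 receptors were called lower and 0 or 1 higher. Whether receptors and ligands differ from each other was not tested, since genes are not replicates of a condition.

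**Figure D1:**
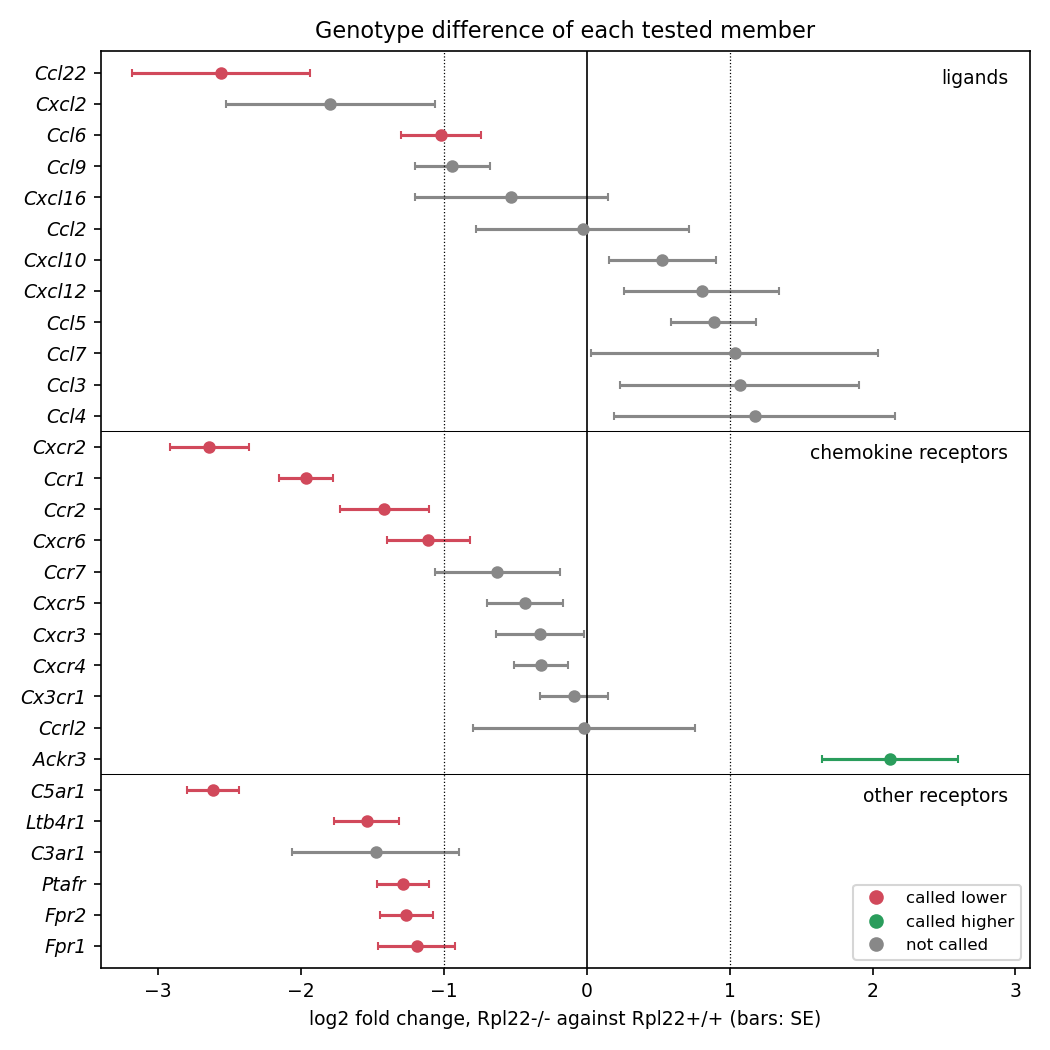
Log2 fold change of each tested member, Rpl22-/- against Rpl22+/+ (horizontal axis), with its SE as a bar, grouped into ligands, chemokine receptors and other receptors; dotted lines mark the fold-change threshold and color marks the call. Among the receptors 9 points are called lower and 1, Ackr3, is called higher, while among the 12 ligands 2 are called lower.

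The receptors for chemoattractants other than chemokines were the most uniform group. All 6 had Rpl22-/- libraries that lay below every Rpl22+/+ library, a pattern that 22.2% of all tested genes showed, and 5 of the 6 were called lower. Their median log2 fold change was -1.38.

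C5ar1, the receptor for the complement fragment C5a, showed the smallest adjusted p of all members. It was at 175, 223 and 169 CPM in Rpl22+/+ and at 30.0, 27.2 and 35.3 CPM in Rpl22-/-. The groups were far apart, with little spread in either (6.13-fold lower, log2 fold change -2.62 ± 0.18 SE, edgeR adjusted p = 0.000203). In TPM, C5ar1 was between 16.5 and 25.4 times as high as C5ar2, a second C5a receptor that binds without coupling to G proteins, in the Rpl22+/+ libraries, and between 1.23 and 2.70 times as high in the Rpl22-/- libraries.

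Fpr1 and Fpr2 bind formylated peptides and, for Fpr2, a broad range of other ligands such as annexin A1 and serum amyloid A. Fpr2 was at 281, 240 and 282 CPM in Rpl22+/+ and at 133, 113 and 88.9 CPM in Rpl22-/- (log2 fold change -1.26 ± 0.18 SE, edgeR adjusted p = 0.00351). Fpr1 was at 96.8, 76.6 and 91.3 CPM in Rpl22+/+ and at 51.8, 39.4 and 25.0 CPM in Rpl22-/- (log2 fold change -1.19 ± 0.27 SE, edgeR adjusted p = 0.0185). For both genes every Rpl22-/- library was below every Rpl22+/+ library, and Rpl22-/- replicate 3 was the lowest. The Fpr1 call was lost when any of 4 libraries was left out. Leaving out Rpl22+/+ replicate 1 or 3, or Rpl22-/- replicate 2, raised the adjusted p to between 0.0567 and 0.0689, and without Rpl22-/- replicate 3 the log2 fold change was -0.95. The call stood without Rpl22+/+ replicate 2 or Rpl22-/- replicate 1. The level of Fpr2 is uncertain in another way, because 43.0% of the 31-base words in its transcripts occur in other genes, most of them in the gene model Gm5966, although Gm5966 itself received at most 38 reads per library.

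Ltb4r1 is the high-affinity receptor for leukotriene B4. Its level was 185, 272 and 175 CPM in Rpl22+/+ and 80.4, 78.6 and 58.5 CPM in Rpl22-/-, and the groups did not overlap (2.91-fold lower, log2 fold change -1.54 ± 0.23 SE, edgeR adjusted p = 0.00368). Ptafr, the receptor for platelet-activating factor, was at 64.9, 81.4 and 66.1 CPM in Rpl22+/+ and at 35.2, 26.2 and 25.8 CPM in Rpl22-/-. It too was lower in every Rpl22-/- library (log2 fold change -1.29 ± 0.18 SE, edgeR adjusted p = 0.00296). C3ar1, the C3a receptor, was barely detected. Its reads numbered 53 in the Rpl22+/+ group and 22 in the Rpl22-/- group, and its log2 fold change of -1.48 ± 0.58 SE did not pass (edgeR adjusted p = 0.108).

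Among the 11 chemokine receptors, 4 were called lower, 1 was called higher and 6 were not called, with a median log2 fold change of -0.43. Cxcr2, the neutrophil receptor for Cxcl1, Cxcl2 and related chemokines, had the lowest fold change of any member. It was at 284, 266 and 278 CPM in Rpl22+/+ and at 59.1, 45.6 and 28.1 CPM in Rpl22-/-. The Rpl22+/+ libraries were nearly equal, and the highest Rpl22-/- library was far below them (6.24-fold lower, log2 fold change -2.64 ± 0.28 SE, edgeR adjusted p = 0.000984). Ccr1, a receptor for Ccl3, Ccl5, Ccl6 and Ccl9, was at 158, 143 and 160 CPM in Rpl22+/+ and at 49.7, 34.2 and 34.3 CPM in Rpl22-/-. These groups did not overlap either (3.90-fold lower, log2 fold change -1.96 ± 0.19 SE, edgeR adjusted p = 0.000698).

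Ccr2, the receptor for Ccl2 and Ccl7, was at 428, 217 and 499 CPM in Rpl22+/+ and at 139, 127 and 162 CPM in Rpl22-/-. Rpl22+/+ replicate 2 held less than the other libraries of its genotype but still lay above all Rpl22-/- libraries (log2 fold change -1.42 ± 0.31 SE, edgeR adjusted p = 0.0164). The fold change kept its direction when any library was left out, but the call held only without Rpl22+/+ replicate 2. With any other library left out the adjusted p was between 0.0501 and 0.0865. The Ccr2 call was also lost by limma on log2(TPM + 1) and log2(TPM + 0.1), with adjusted p of 0.0659 and 0.0647. Cxcr6, the receptor for Cxcl16, was a low gene, at 0.968, 0.783 and 0.935 CPM in Rpl22+/+ and at 0.348, 0.489 and 0.396 CPM in Rpl22-/- (log2 fold change -1.11 ± 0.29 SE, edgeR adjusted p = 0.0306). Its call, too, was lost when any library other than Rpl22+/+ replicate 2 was left out, with adjusted p between 0.0625 and 0.115. The Cxcr6 call was also lost with library totals alone, with no filter on low counts, and on log2(TPM + 1) and log2(TPM + 0.1).

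Ackr3, a scavenging receptor for Cxcl12 that does not couple to G proteins, was the only member called higher. Its levels were 0.0855, 0.189 and 0.0668 CPM in Rpl22+/+ and 0.428, 0.539 and 0.529 CPM in Rpl22-/-. The groups did not overlap (23.9% of tested genes lay apart in this direction), but they rest on 25 reads in all for Rpl22+/+ and 126 for Rpl22-/- (log2 fold change 2.12 ± 0.47 SE, edgeR adjusted p = 0.0175). The adjusted p rose to between 0.0503 and 0.0725 without Rpl22+/+ replicate 1 or 3 or Rpl22-/- replicate 2 or 3. Ackr3 is known from stromal and endothelial cells, which a sort for CD11b and Gr1 should remove. The summed level of 10 markers of those cells was 61.0 to 72.7 CPM in Rpl22+/+ and 75.2 to 95.9 CPM in Rpl22-/-, with Col1a2, Col3a1 and Emcn under 0.1 CPM in every library. Nearly all of that sum was Pecam1, which myeloid cells also express, and the other 9 markers summed to 5.73 to 6.46 CPM in Rpl22+/+ and to 3.53 to 5.40 CPM in Rpl22-/-, with Lepr and Kdr called higher and Pdgfrb called lower. The part of such cells in the Ackr3 result was not tested.

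Other chemokine receptors overlapped between genotypes. Cxcr4, the Cxcl12 receptor, was at 338, 516 and 432 CPM in Rpl22+/+ and at 314, 344 and 371 CPM in Rpl22-/- (log2 fold change -0.32 ± 0.19 SE, edgeR adjusted p = 0.261). Cx3cr1, the fractalkine receptor of monocytes, was at 48.4, 88.0 and 63.8 CPM in Rpl22+/+ and at 52.6, 68.3 and 66.9 CPM in Rpl22-/- (log2 fold change -0.09 ± 0.24 SE, edgeR adjusted p = 0.822). Neither difference exceeded the spread between libraries, and the sign of the Cx3cr1 value turned under several alternatives. Ccr7, which guides dendritic cells and lymphocytes to lymph nodes, was at 11.6, 17.9 and 11.8 CPM in Rpl22+/+ and at 4.17, 7.97 and 14.5 CPM in Rpl22-/-, and Rpl22-/- replicate 3 lay within the Rpl22+/+ range (log2 fold change -0.63 ± 0.44 SE, edgeR adjusted p = 0.350). Ccrl2, which binds chemerin and presents it to neighboring cells, was at 10.97, 27.0 and 19.3 CPM in Rpl22+/+ and at 4.01, 11.5 and 40.7 CPM in Rpl22-/-. Rpl22-/- replicate 1 lay below the Rpl22+/+ range, replicate 2 within it and replicate 3 above it, and the log2 fold change was -0.02 ± 0.77 SE (edgeR adjusted p = 0.989). Cxcr5 and Cxcr3, which are best known from lymphocytes, had log2 fold changes of -0.43 and -0.32 and were not called.

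**Figure D2:**
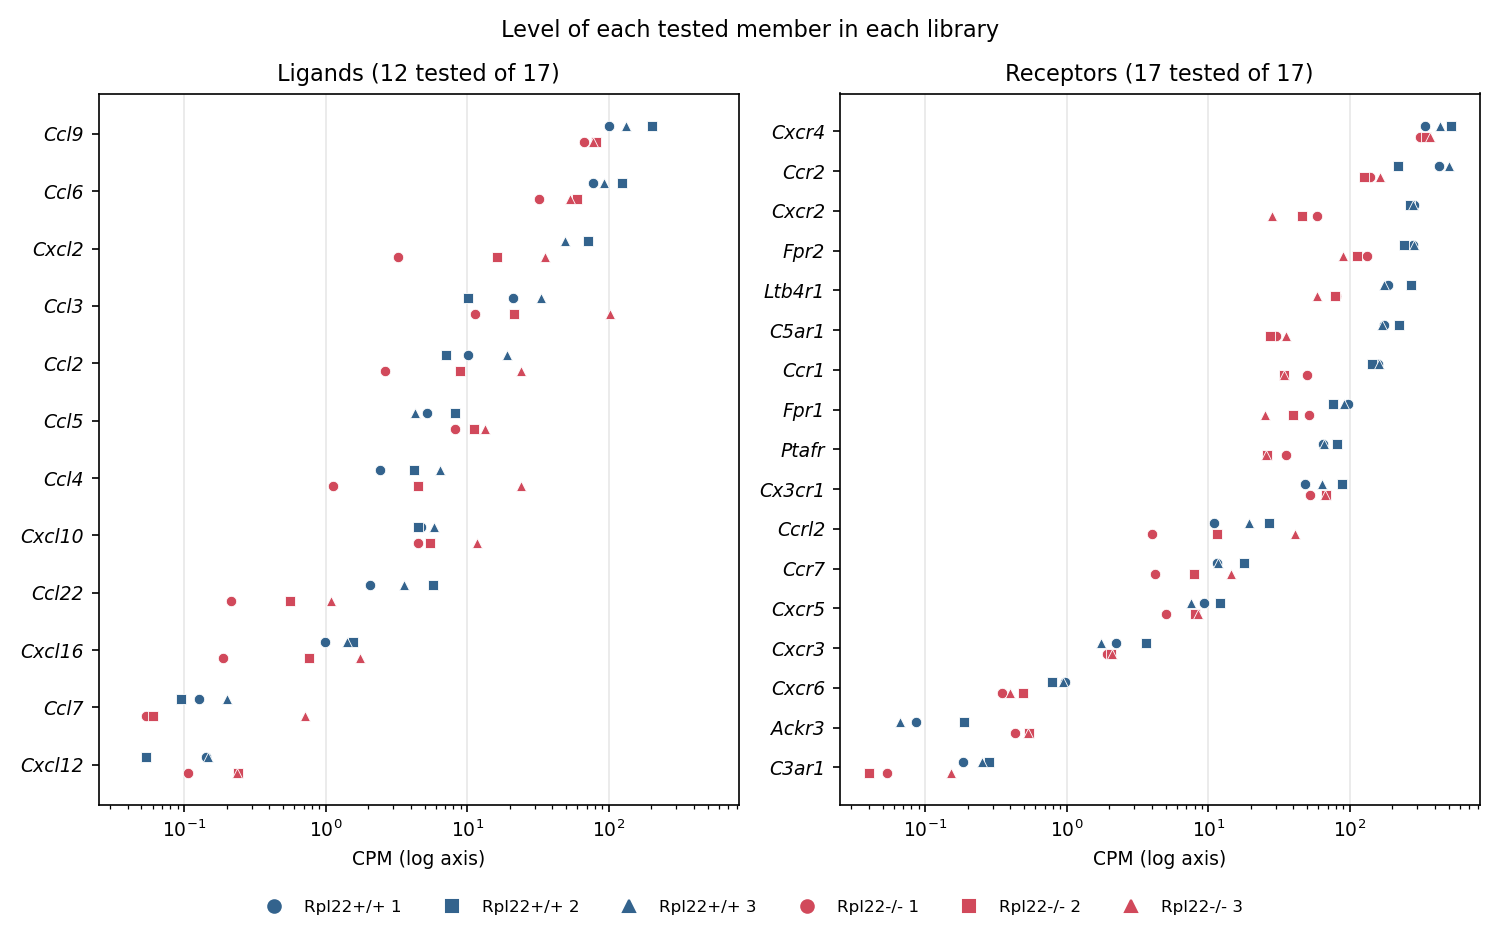
Level of each tested ligand (left) and receptor (right) in CPM on a log axis, with 1 marker per library, Rpl22+/+ in blue and Rpl22-/- in red. Receptors such as Cxcr2, C5ar1 and Ccr1 show 2 separate sets of points, while the Rpl22-/- points of Cxcl2, Ccl4, Ccl2 and Ccrl2 are spread widely.

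Summed over the 17 receptors, TPM was 1643, 1376 and 1715 in Rpl22+/+ and 825, 699 and 759 in Rpl22-/-. In Rpl22+/+ replicates 1 and 3 the most abundant receptor transcript was that of Fpr2, and in Rpl22+/+ replicate 2 it was that of Cxcr4. In all 3 Rpl22-/- libraries it was Cxcr4, which held 33.7% to 42.7% of the receptor TPM. The ratio of Cxcr4 to Cxcr2 in TPM was 2.35 to 3.92 in Rpl22+/+ and 9.88 to 25.8 in Rpl22-/-, with no overlap. Cxcl12, the ligand of Cxcr4, was near the limit of detection in both genotypes, with 25 reads in all for Rpl22+/+ and 53 for Rpl22-/- (log2 fold change 0.80 ± 0.54 SE, edgeR adjusted p = 0.330).

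Several marker lists differed between genotypes alongside these receptors. The summed level of 10 mature neutrophil markers, a list without any member, was 41705 to 56583 CPM in Rpl22+/+ and 12453 to 17017 CPM in Rpl22-/-, and 7 of the 10 were called lower and 0 higher. Of the 4 genes of the sort antigens, 2 were called lower: Ly6g, part of the Gr1 antigen, at 149 to 178 CPM in Rpl22+/+ and 11.1 to 15.7 CPM in Rpl22-/-, and Itgam, which encodes CD11b, with a log2 fold change of -1.02. The other two, Ly6c1 and Ly6c2, had log2 fold changes of 0.40 and 0.51 and were not called. In bulk RNA, fewer mature neutrophils and less receptor RNA per cell cannot be told apart. The summed level of 10 monocyte and macrophage markers was 1955 to 2781 CPM in Rpl22+/+ and 2165 to 2907 CPM in Rpl22-/-. Within that list Csf1r and Adgre1 were called lower and C1qa, C1qb and C1qc higher, and without Ly6c2, its most abundant gene, the sum was 1187 to 1501 CPM in Rpl22+/+ and 979 to 1229 CPM in Rpl22-/-. The erythroid markers summed to 110 to 138 CPM in Rpl22+/+ and 497 to 806 CPM in Rpl22-/-, with 6 of the 9 tested called higher and 0 lower, and the B cell markers to 870 to 1101 CPM and 547 to 807 CPM, with 1 of 10 called higher and 0 lower. Of the 10 eosinophil, basophil and mast cell markers 4 were called lower and 1 higher, and their sums overlapped, at 35.4 to 46.8 CPM and 34.8 to 37.9 CPM. The part of any of these cells in the receptor results was not tested. The single markers named beside list sums here and elsewhere were chosen after their values were seen.

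Among the 12 tested ligands, Ccl6, Ccl9, Ccl22 and Cxcl2 were lower in every Rpl22-/- library than in any Rpl22+/+ library, and Ccl5 was higher. Of all tested genes, 22.2% lay apart in the lower direction and 23.9% in the higher, so such a pattern is common here. Ccl6 and Ccl9 are CC chemokines of the mouse that bind Ccr1 and are made by myeloid cells without a stimulus. Ccl6 was at 77.4, 124 and 92.6 CPM in Rpl22+/+ and at 32.0, 59.4 and 53.2 CPM in Rpl22-/- (log2 fold change -1.02 ± 0.28 SE, edgeR adjusted p = 0.0353). Ccl9 was at 101, 201 and 133 CPM in Rpl22+/+ and at 66.6, 81.8 and 77.6 CPM in Rpl22-/- (log2 fold change -0.94 ± 0.26 SE, edgeR adjusted p = 0.0372). Both were lower in every Rpl22-/- library; Ccl6 lies just past the fold-change threshold and Ccl9 just short of it. The Ccl6 fold change was under the threshold in 7 alternatives, among them at -0.80 without Rpl22-/- replicate 1 and -0.85 without Rpl22+/+ replicate 2, and its adjusted p passed 0.05 without Rpl22+/+ replicate 3 or without Rpl22-/- replicate 1 or 3.

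Ccl22, a ligand of Ccr4 made mostly by dendritic cells and macrophages, was at 2.07, 5.70 and 3.55 CPM in Rpl22+/+ and at 0.214, 0.559 and 1.09 CPM in Rpl22-/- (5.91-fold lower, log2 fold change -2.56 ± 0.62 SE, edgeR adjusted p = 0.0237). The groups did not overlap, though both were broad, and the call was lost without Rpl22+/+ replicate 3 or without Rpl22-/- replicate 1 or 2, with adjusted p between 0.0509 and 0.0893. The 10 dendritic cell markers summed to 151 to 191 CPM in Rpl22+/+ and to 100 to 146 CPM in Rpl22-/-, with 2 (Flt3 and Cd209a) called lower and 0 higher. Without Ciita, the most abundant of them, the sums overlapped, at 64.4 to 78.4 CPM and 56.5 to 77.0 CPM. Their part in the Ccl22 result was not tested. Ccl17, the other Ccr4 ligand, had 0 reads in the Rpl22+/+ libraries, which allows up to 0.0137 CPM by a floor of 3 reads over those libraries, and 7 reads in the Rpl22-/- libraries.

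Cxcl2, the most abundant Cxcr2 ligand among the members, was at 71.3, 71.9 and 49.2 CPM in Rpl22+/+ and at 3.26, 16.2 and 35.7 CPM in Rpl22-/-. All Rpl22-/- libraries were below all Rpl22+/+ libraries, but they differed from each other 10.9-fold, and the difference did not pass (log2 fold change -1.80 ± 0.73 SE, edgeR adjusted p = 0.118). Over 16 alternatives the adjusted p ran from 0.0160 to 0.278, and it passed by the DESeq2 Wald test alone, which on simulated data had a larger share of false calls than edgeR. Its paralogs Cxcl1 and Cxcl3 were nearly absent, with 2 and 6 reads in all for Rpl22+/+ and 16 and 12 for Rpl22-/-, and were not tested. The platelet chemokines Pf4 and Ppbp had at most 7 reads in a genotype and were not tested. The 10 platelet and megakaryocyte markers summed to 5.65 to 7.79 CPM in Rpl22+/+ and to 5.61 to 7.08 CPM in Rpl22-/-, mostly from Gp9, Itga2b and Clec1b, while Gp1ba and Gp6 were under 0.1 CPM in every library, and of the 6 tested 0 were called.

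Ccl3, Ccl4 and Ccl2, CC chemokines that monocytes and macrophages release, varied widely between the Rpl22-/- libraries. Ccl3 was at 20.9, 10.2 and 33.4 CPM in Rpl22+/+ and at 11.4, 21.3 and 103 CPM in Rpl22-/- (log2 fold change 1.07 ± 0.83 SE, edgeR adjusted p = 0.403). Ccl4, a CC chemokine closely related to Ccl3, was at 2.41, 4.24 and 6.47 CPM in Rpl22+/+ and at 1.12, 4.48 and 23.9 CPM in Rpl22-/- (log2 fold change 1.17 ± 0.98 SE, edgeR adjusted p = 0.437). Ccl2 was at 10.2, 7.06 and 19.1 CPM in Rpl22+/+ and at 2.62, 8.94 and 24.0 CPM in Rpl22-/- (log2 fold change -0.03 ± 0.74 SE, edgeR adjusted p = 0.984). For all 3 genes Rpl22-/- replicate 1 was low, Rpl22-/- replicate 3 was high, and the genotypes overlapped. Without Rpl22-/- replicate 3 the log2 fold changes of Ccl3 and Ccl4 were -0.39 and -0.62, so their sign rests on that library.

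The range within Rpl22-/- was extreme against other genes. The highest Rpl22-/- library exceeded the lowest 21.2-fold for Ccl4, 10.9-fold for Cxcl2, 10.2-fold for Ccrl2, 9.28-fold for Cxcl16, 9.15-fold for Ccl2 and 9.04-fold for Ccl3. Of the 12473 genes with a mean of at least 1 CPM over the 6 libraries and reads in every Rpl22-/- library, only 0.104% ranged as widely as Ccl4 and 0.424% as widely as Ccl3, and the median gene ranged 1.24-fold. Ccl7, below that level, ranged 13.4-fold, and Cxcl16, at a mean of 0.894 CPM in Rpl22-/-, was low as well. Cxcl10 ranged 2.60-fold, Ccl6 1.86-fold, Ccl5 1.62-fold and Ccl9 1.23-fold, so wide ranges were not shared by all ligands. In Rpl22+/+ these genes ranged less, 3.28-fold for Ccl3, 2.71-fold for Ccl2, 2.69-fold for Ccl4, 2.46-fold for Ccrl2, 1.58-fold for Cxcl16 and 1.46-fold for Cxcl2, although the median gene there ranged more, 1.46-fold. Of the 29 tested members 14 (48.3%), and 9 of the 12 tested ligands, were lowest in Rpl22-/- replicate 1 and highest in Rpl22-/- replicate 3, an order that 14.1% of all tested genes had. Rpl22-/- replicate 1 was also the library with the fewest reads and replicate 3 the one with the most, and the part of depth in this order was not tested.

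**Figure D3:**
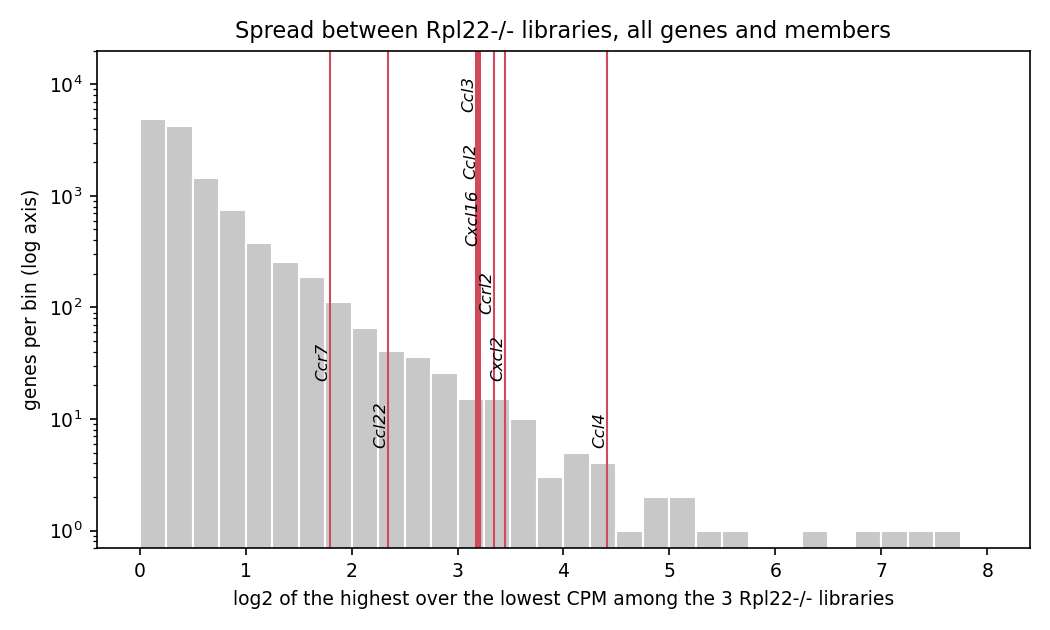
Number of genes (log axis) by the log2 ratio of the highest to the lowest CPM among the 3 Rpl22-/- libraries, for 12473 genes at a mean of 1 CPM or more over the 6 libraries, with red lines at the 8 members of widest range among those at that level. Ccl4 (21.2-fold), Cxcl2, Ccrl2, Cxcl16, Ccl2 and Ccl3 lie in the far right tail of the distribution.

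The receptors called lower did not share this spread. Within Rpl22-/-, C5ar1 ranged 1.30-fold, Ptafr 1.37-fold, Ltb4r1 1.37-fold and Ccr1 1.45-fold, and the widest among them were Cxcr2 at 2.11-fold and Fpr1 at 2.07-fold. Rpl22-/- replicate 3 was the lowest Rpl22-/- library for Cxcr2, Fpr1, Fpr2, Ltb4r1 and Ptafr, the opposite of its place for Ccl3, Ccl4 and Ccl2. For C5ar1 and Ccr2 it was the highest, as for those ligands, and for Ccr1 and Cxcr6 it lay between the others.

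**Figure D4:**
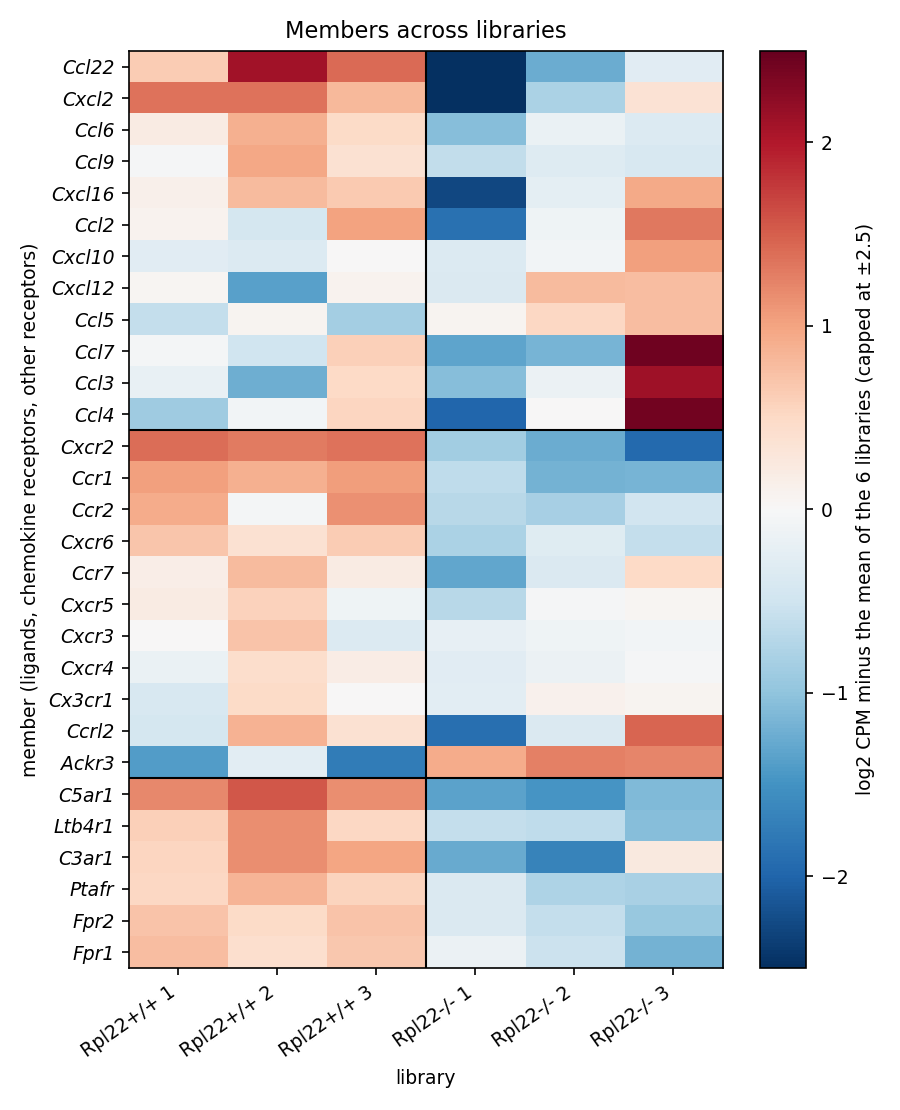
Log2 CPM of each tested member (rows) in each library (columns), minus the member's mean over the 6 libraries and capped at ±2.5, with lines between ligands, chemokine receptors and other receptors. Most receptors change color at the line between genotypes, while Ccl7, Ccl4 and Ccl3 are highest in Rpl22-/- replicate 3 alone.

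Among the other ligands, Ccl5, which lymphocytes and myeloid cells release, was at 5.18, 8.18 and 4.30 CPM in Rpl22+/+ and at 8.21, 11.1 and 13.3 CPM in Rpl22-/-. The lowest Rpl22-/- library was just above the highest Rpl22+/+ library, and the log2 fold change of 0.89 ± 0.30 SE did not pass (edgeR adjusted p = 0.0686). Over 16 alternatives its adjusted p ran from 0.0111 to 0.207 and was under 0.05 in 7, among them the edgeR fit with a replicate block (0.0431), the DESeq2 test (0.0239), limma on log2(TPM + 1) (0.0179) and coding transcripts alone (0.0344). The 10 T and NK cell markers summed to 84.3 to 124 CPM in Rpl22+/+ and to 191 to 199 CPM in Rpl22-/-. That rise was Nkg7, a gene of cytotoxic granules, at 14.8 to 25.5 CPM and 142 to 166 CPM, and the other 9 markers summed to 69.5 to 98.6 CPM in Rpl22+/+ and to 33.0 to 49.1 CPM in Rpl22-/-. The NK cell genes Ncr1 and Klrb1c were also called higher, and Cd3d, Cd3e, Cd3g, Cd4 and Lck were called lower. Their part in the Ccl5 levels was not tested. Cxcl10, an interferon-induced ligand of Cxcr3, had a log2 fold change of 0.53, Cxcl16 one of -0.53 and Ccl7 one of 1.03. None of these passed (edgeR adjusted p = 0.352, 0.628 and 0.510). Summed over the 17 ligands, TPM was 419, 454 and 498 in Rpl22+/+ and 202, 286 and 616 in Rpl22-/-, so the Rpl22-/- libraries lay on both sides of the others. Ccl9 held the largest share in all Rpl22+/+ libraries, while in Rpl22-/- it was Ccl9, Ccl6 and Ccl3 in replicates 1, 2 and 3.

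The deposited values are per transcript, and for Cxcl2 and Ccl2 the transcript makeup differed widely between the Rpl22-/- libraries. Protein-coding transcripts held 34.4%, 45.8% and 47.8% of the Cxcl2 reads in Rpl22+/+ and 4.51%, 21.1% and 51.0% in Rpl22-/-, and the rest lay on transcripts annotated as retained introns. For Ccl2 the coding share was 66.4%, 63.7% and 69.9% in Rpl22+/+ and 35.7%, 58.1% and 82.4% in Rpl22-/-. In both genes Rpl22-/- replicate 1 had the lowest coding share and the lowest level, and replicate 3 the highest of both within its genotype. In Rpl22+/+ the coding share of Cxcl2 did not follow its level, being highest in replicate 3, where the level was lowest. That of Ccl2 did, being lowest in Rpl22+/+ replicate 2 and highest in replicate 3, as was its level. Reads on coding Cxcl2 transcripts alone came to 24.5, 32.9 and 23.5 CPM in Rpl22+/+ and to 0.147, 3.42 and 18.2 CPM in Rpl22-/-. The split among overlapping transcripts is an estimate by Salmon, with no error given in the values used.

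**Figure D5:**
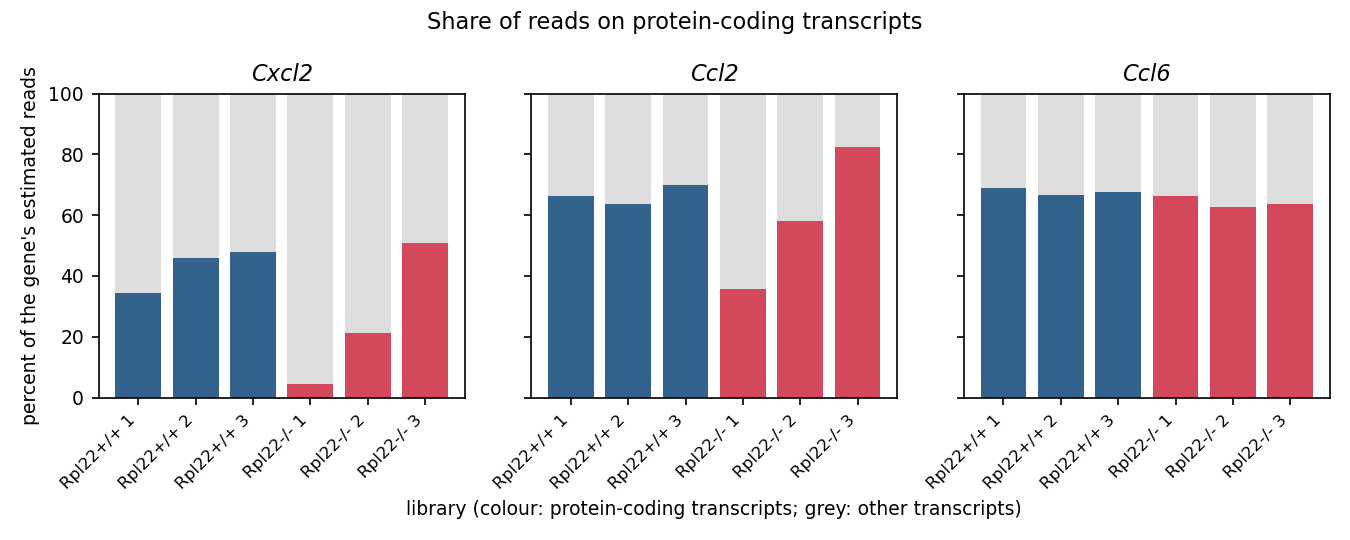
Percent of the estimated reads of Cxcl2, Ccl2 and Ccl6 (vertical axis) on protein-coding transcripts, in blue for Rpl22+/+ and red for Rpl22-/-, with other transcripts in grey, in each of the 6 libraries. For Cxcl2 the coding share runs from 4.51% to 51.0% among the Rpl22-/- libraries, while for Ccl6 it lies between 62.6% and 68.9% everywhere.

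The share of the most abundant transcript lay apart between genotypes without overlap for Ccl6 and Cxcr4, by small amounts, and for Cxcl3, which has too few reads to read anything from. The coding transcript of Ccl6 held 66.5% to 68.9% of the reads in Rpl22+/+ and 62.6% to 66.2% in Rpl22-/-. For Cxcr4 the transcript ENSMUST00000052172 held 88.4% to 90.4% in Rpl22+/+ and 91.4% to 95.1% in Rpl22-/-. For C5ar1, chosen after its values were seen, less abundant coding transcripts moved further. ENSMUST00000168818 held 3.21% to 8.28% of the reads in Rpl22+/+ and 14.4% to 24.0% in Rpl22-/-, and ENSMUST00000209442 held 5.43% to 6.65% and 0% to 2.44%.

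Many members sit in gene clusters, so their neighbors were compared (positions on GRCm39). Ccr1, Ccr2 and Cxcr6 lie within chr9:123635540-123913594, and all were called lower. The 11 other tested genes within 500000 bases had a median log2 fold change of 0.25. Fpr1 and Fpr2 lie within chr17:18096733-18114214, where 4 other tested genes had a median of -0.10 and Fpr3 was the one called lower. Ccl3, Ccl4, Ccl5, Ccl6 and Ccl9 lie within chr11:83416604-83555509, and although they are neighbors, Ccl6 and Ccl9 were lower while Ccl3, Ccl4 and Ccl5 had fold changes above 0 that did not pass. The 22 other tested genes there had a median of 0.09, with Slfn1 and Slfn4 called lower and Gas2l2, Mmp28, Slfn14 and Taf15 called higher.

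RefSeq promoter sequences (GRCm38.p6) were at hand for 27 of the 34 members, 12 ligands and 15 receptors. Those not in the table were Ccl2, Ccl4, Ccl5, Ccl7, Ccr7, Cxcl16 and Cxcr5. A kappa B word (GGG, any 3 bases, then TTCC, on either strand) was found in the 250 bases before the start of Cxcl1, Cxcl2, Cxcl3, Cxcl10, Ccl9 and C3ar1, that is in 5 of 12 ligands and 1 of 15 receptors, against 4.65% of 32851 mouse promoters. The last 100 bases before the start are shown for the Cxcr2 ligands Cxcl1, Cxcl2 and Cxcl3, because these paralogs carry the word at like places and differ so widely in level; capitals mark each match, and the 11-letter run is a match on both strands.
Cxcl1, chr5:90891145-90891244, plus strand: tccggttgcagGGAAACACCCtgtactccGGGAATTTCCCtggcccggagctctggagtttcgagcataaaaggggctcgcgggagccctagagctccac
Cxcl2, chr5:90903799-90903898, plus strand: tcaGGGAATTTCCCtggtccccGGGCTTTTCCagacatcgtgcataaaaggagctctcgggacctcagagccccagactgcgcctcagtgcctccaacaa
Cxcl3, chr5:90786001-90786100, plus strand: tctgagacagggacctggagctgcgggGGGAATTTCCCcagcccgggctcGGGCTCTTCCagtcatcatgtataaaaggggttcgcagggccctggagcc

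Each of these windows holds 3 matches counted over both strands, and in TPM Cxcl2 was at 70.5 to 94.7 in Rpl22+/+ while Cxcl1 and Cxcl3 were at 0.05 or less. The word GAGGAA, the core bound by PU.1, was found on either strand in 6 of 15 receptor promoters, those of Ccr1, Cxcr2, Cxcr3, Fpr2, Ltb4r1 and Ptafr, and in 3 of 12 ligand promoters, against 23.3% of all promoters. Of these 6 receptors 5 were called lower, as were 4 of the 9 receptors without the word (Ccr2, Cxcr6, Fpr1 and C5ar1). The 250 bases before the start are shown for Cxcr2 and Ccr1, the chemokine receptors of lowest fold change, with the word or its reverse complement in capitals.
Cxcr2, chr1:74153744-74153993, plus strand: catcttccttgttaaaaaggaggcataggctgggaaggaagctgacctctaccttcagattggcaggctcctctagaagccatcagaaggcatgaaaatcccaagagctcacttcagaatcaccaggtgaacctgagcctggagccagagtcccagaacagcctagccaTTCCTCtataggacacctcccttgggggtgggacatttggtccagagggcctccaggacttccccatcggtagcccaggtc
Ccr1, chr9:123968693-123968942, minus strand: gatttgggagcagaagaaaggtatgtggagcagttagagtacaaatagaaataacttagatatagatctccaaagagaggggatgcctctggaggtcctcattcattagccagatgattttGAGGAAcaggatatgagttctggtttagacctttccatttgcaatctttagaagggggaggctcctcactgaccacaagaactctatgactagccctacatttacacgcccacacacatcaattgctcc

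A C/EBP word, TTGCNNAA, was found before Ackr3 and Pf4 alone (9.56% of all promoters), and an AP-1 word, TGANTCA, before Ccl9, Cxcl10, Ppbp and C3ar1 (6.75% of all promoters). A match shows only that the letters are present, and no binding was measured.

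Genes around the members were followed in 4 lists of 87 genes, of which 64 were tested, 17 were called lower and 2 were called higher. Among chemokines that are not members, 6 of 21 were tested. Ccl28, a mucosal chemokine, was called higher on 3 reads in all for Rpl22+/+ and 48 for Rpl22-/-, and Ccl27a, a skin chemokine with near-identical gene copies that makes its level uncertain, was called higher at 1.51 to 1.77 CPM in Rpl22+/+ and 4.70 to 6.17 CPM in Rpl22-/-. Among other chemoattractant receptors, 5 of 18 tested genes were called lower and 0 higher. Gpr35 had a log2 fold change of -1.64 ± 0.26 SE (edgeR adjusted p = 0.00497).

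The signaling genes downstream were all tested, and 6 of 29 were called lower and 0 higher, with a median log2 fold change of -0.57. The smallest p-values were those of Gng2, a G protein gamma subunit, at 62.2 to 64.8 CPM in Rpl22+/+ and 19.0 to 24.9 CPM in Rpl22-/- (log2 fold change -1.48 ± 0.15 SE, edgeR adjusted p = 0.000780), and of Pik3cg, the catalytic subunit of phosphoinositide 3-kinase gamma, at 195 to 211 CPM and 89.6 to 99.6 CPM (log2 fold change -1.12 ± 0.12 SE, edgeR adjusted p = 0.00112). Of 11 tested genes that make or are themselves ligands of the non-chemokine receptors, 6 were called lower and 0 higher. Alox5, the enzyme that starts leukotriene synthesis, was at 237 to 312 CPM in Rpl22+/+ and 42.8 to 61.7 CPM in Rpl22-/- (log2 fold change -2.28 ± 0.20 SE, edgeR adjusted p = 0.000527). Lpcat2, which makes platelet-activating factor, was at 66.2 to 77.4 CPM in Rpl22+/+ and 10.4 to 15.4 CPM in Rpl22-/- (log2 fold change -2.41 ± 0.19 SE, edgeR adjusted p = 0.000329). Lpcat1, of the same list, was also called lower (log2 fold change -1.63 ± 0.21 SE, edgeR adjusted p = 0.00206). Lta4h, Alox5ap and Pla2g4a, named after their values were seen, were not called. Lta4h, which forms leukotriene B4, had a log2 fold change of -0.14 ± 0.16 SE, and the phospholipase Pla2g4a one of -0.04 ± 0.36 SE. Alox5ap, at -0.93 ± 0.19 SE, passed on adjusted p (edgeR, 0.0124) but not on the size of the change.

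Set side by side in TPM, several known pairs were present on both sides in these cells. Ccl9 and Ccl6 averaged 143 and 125 TPM in Rpl22+/+ and 80.6 and 67.8 TPM in Rpl22-/-, and their receptor Ccr1 averaged 69.5 TPM in Rpl22+/+ and 19.1 TPM in Rpl22-/-. Cxcl2 averaged 81.5 and 24.1 TPM, and its receptor Cxcr2 115 and 19.8 TPM. For Cxcr4, Cx3cr1, Ccr7 and Cxcr5 the receptor was present, and the ligands looked at (Cxcl12, Cx3cl1, Ccl19 and Cxcl13) were each below 0.5 TPM in every library. Ccl22 was measured with almost no Ccr4, which was below 0.1 TPM in all libraries.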

How the data were processed

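RNA of 6 libraries of sorted CD11b+Gr1+ splenocytes was sequenced by the study as stranded poly(A) RNA-seq. Per the submitters' processing notes and the methods, the authors used Trimmomatic for trimming and Salmon for transcript abundance, on GRCm39; the versions are not given in the sources used here. The deposited tables give per transcript an estimated count and TPM, with transcript lengths. A further table holds the authors' own DESeq2 comparison, of which only gene positions were used. Transcripts were summed to genes by identifier through GENCODE vM21, and 136036 of 276623 listed transcripts (49.2%) matched, holding 98.0% to 98.1% of the reads; reads on other transcripts are in no gene sum. Gene sums were rounded to whole numbers and tested with edgeR 4.0.16 in R 4.3.3 (TMM, filterByExpr, quasi-likelihood F test, genotype only, Benjamini-Hochberg over 16656 genes), where the study used DESeq2. The SE is the log2 fold change divided by the root of F. The test was checked on simulated data.

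Values are given in every library for each called member and for those with a group mean of at least 10 CPM. In the surrounding lists up to 2 called genes per direction with the smallest p are named, with Lpcat1, Lta4h, Alox5ap and Pla2g4a besides. Some genes of these lists are not reported here. The members and lists were chosen with earlier results of these data known. Alternatives were DESeq2 1.42.0 size factors and test, library totals alone, no filter, limma 3.58.1 (voom, and on log2(TPM + 1) and log2(TPM + 0.1)), a transcript length offset, a replicate block, each library left out, and, chosen after seeing the data, protein-coding transcripts alone. No library pair agreed within sampling noise. Intervals of shares are not given, and the floor covers counting error only. Shared 31-base words were counted between transcripts of different genes. Promoter sequences are from RefSeq on GRCm38.p6.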

Additional observations from a re-analysis of the deposited data

How the results depend on the processing

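Of 463 pairs of a member and an alternative, 401 kept the direction and the side of the threshold, 37 lost a call, 5 gained one and 20 changed sign. Ccr1, Cxcr2, Fpr2, C5ar1, Ltb4r1 and Ptafr kept their calls in all 16 alternatives. With library totals alone, 2 members, 1 ligand and 4 pathway genes were called higher and 1 ligand lower, Ccl5 joining at an edgeR adjusted p of 0.0222, and the median of all genes moved to 0.19 and that of receptors to -1.07. On log2(TPM + 1), where fold changes of low genes are understated by construction, 906 genes were called higher and 699 lower, with 0 members or receptors higher, 1 ligand and 11 pathway genes lower and medians of -0.11 for ligands and -0.58 for receptors. On log2(TPM + 0.1) these medians were -0.091 and -0.84, that of all genes 0.19, and 1 ligand was lower, as it was with no filter and with the length offset. With 1 library left out, members called ran from 0 to 2 higher and 6 to 10 lower (7 without Rpl22-/- replicate 1 or 2, 6 without Rpl22+/+ replicate 3), ligands from 0 to 1 higher and 0 to 3 lower (3 without Rpl22+/+ replicate 1, where Ccl9 passed), receptors from 0 to 1 higher, pathway genes from 2 to 4 higher. The median of receptors ran from -1.31 to -1.12, and that of ligands from -0.96 without Rpl22-/- replicate 3 to 0.61. Signs turned, with no call, for Ccl2 (library totals 0.066, coding transcripts alone 0.10), Ccrl2 (library totals 0.14, no filter 0.038, length offset 0.057, coding transcripts alone 0.039) and Cx3cr1 (library totals 0.059, log2(TPM + 1) 0.040, log2(TPM + 0.1) 0.042). With 1 library left out they turned for Ccl2 (-1.05 to 0.46), Ccl3 (-0.39 to 1.53), Ccl4 (-0.62 to 1.70), Cxcl10 (-0.0049 to 0.78), Ccrl2 (-1.28 to 0.46) and Cx3cr1 (-0.28 to 0.12), with the lowest value without Rpl22-/- replicate 3 except for Cx3cr1, where it was without Rpl22+/+ replicate 1. The cause was not tested. The labels do not say that a replicate number marks a shared animal or day. Deviations of same-numbered libraries correlated at 0.48, 0.63 and 0.097 over all tested genes, and at 0.57, 0.71 and 0.13 over the 13202 genes of 50 or more mean counts; Rpl22+/+ replicate 3 correlated more with Rpl22-/- replicate 1 than with its own number. With the replicate block the median of ligands was -0.0035, and 1691 genes were called higher and 1488 lower. Depth limits Ackr3, C3ar1 and the 5 untested ligands, which rest on few reads.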
